A study of Triticum aestivum with 9 samples.

Results

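On an Affymetrix wheat array, 115 of 61115 probe sets shared one course in the developing grain of bread wheat (Triticum aestivum): a large gain between 11 and 15 days post-anthesis, and then little change by 20 days. A probe set is a group of short oligonucleotides that together read one transcript or a few similar ones. Members were chosen by their measured values. The mean log2 signal had to be higher by 2 or more (4-fold) at 15 than at 11 days, with the 3 arrays of one phase not overlapping the 3 of the other. It then had to differ by less than 0.5 either way between 15 and 20 days, and the mean signal at 15 days had to be 500 or more. Probe sets of the genes LOC543067 (PEAMT1) and LOC543193 (PIMT) were left out by name under the same rule, although these 2 probe sets met its other criteria. Since these values chose the members, their gain and their plateau are descriptions and carry no test.

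The grain came from the cultivar Jimai 20, grown in field plots with no treatment and no altered genotype, and was harvested whole at P1 (11 days post-anthesis), P2 (15 days) and P3 (20 days), with 3 biological replicates and 1 array for each. The labels do not link equal replicate numbers across phases. A whole grain holds starchy endosperm, aleurone, embryo and the maternal pericarp, so more cells of a type and more RNA per cell cannot be told apart in these signals. The label was checked against marker genes, with embryo and aleurone in 1 list, so that the aleurone was not checked on its own. The 6 probe sets of the starchy endosperm list moved in both directions, with median log2 changes of -0.06 from P1 to P2 and -0.18 from P2 to P3. Alpha-gliadin (LOC543210) had means of 59250 at P1 and 66060 at P3, and AGP-S (LOC543299), a subunit of the starch synthesis enzyme ADP-glucose pyrophosphorylase, of 41986 and 32771. The 4 of the green pericarp list had medians of -0.48 and -1.43, with PsbO (LOC543291) at 8286 and 1703. The 11 of the embryo and aleurone list had medians of 4.58 and 1.47. Its EM, EMH2 and Rab15 probe sets are also the maturation genes compared below, so these medians do not show which compartments were present. On EM (LOC543497) the 2 probe sets had 3 and 1 P1 arrays below background and P3 means of 42337 and 25287, while PER1 (LOC543108) was at 23344 at P1 and 38640 at P3 on Ta.14503.1.S1_at.

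During these days the endosperm stops dividing and fills with starch and storage protein, while the embryo and aleurone begin the maturation programme that later lets the seed dry out. Storage protein genes are usually at a high level before this window opens, and maturation genes of the late embryogenesis type keep climbing through it. Bread wheat is hexaploid, so most genes exist as near-identical copies on its subgenomes, and a probe set can read several of them together.

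The gain and level criteria were met by 372 of the 61113 probe sets considered, or 0.609% (the gain criterion alone by 2.78%). Of these early gainers 115 (30.9%) stayed within 0.5 of their P2 level, 145 (39.0%) were higher by 0.5 or more at P3, and 112 (30.1%) were lower by 0.5 or more. The complete rule was thus met by 0.188% of probe sets. Among all 12961 probe sets with a mean P2 signal of 500 or more, 72.6% met the plateau criterion, a share that stands beside 30.9% for the early gainers and was not tested against it. In the opposite direction, 241 probe sets with a mean P1 signal of 500 or more were lower by 2 or more at P2 without overlap, and 91 of them (37.8%) then stayed within 0.5.

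**Figure D1:**
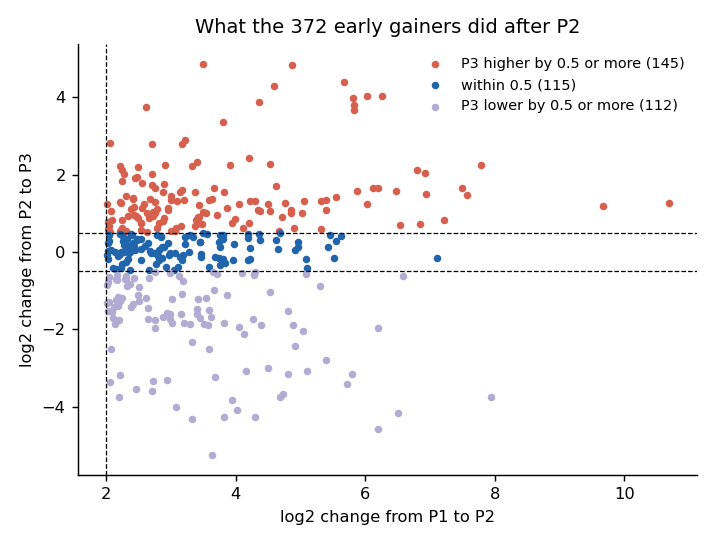
Log2 change from P1 to P2 (horizontal axis) and from P2 to P3 (vertical axis) of the 372 early gainers, 1 point for each probe set; dashed lines mark the thresholds of 2 and of 0.5 either way. The 115 members form the middle band, with 145 probe sets above it and 112 below, and the points run on across both lines without a gap.

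The band has no natural edge. In steps of 0.25, 15 and 31 early gainers lay below 0 within the band and 34 and 35 above it, with 20 just beneath the lower threshold and 25 just over the upper one. Just inside the upper threshold were Ta.24312.1.S1_at and Ta.20518.2.S1_x_at, with log2 changes from P2 to P3 of 0.50 and 0.49, and just outside were Ta.5873.2.S1_at and Ta.5730.1.S1_s_at, with 0.505 and 0.507. At the lower one, Ta.3749.1.S1_s_at (-0.48) and Ta.8141.3.S1_a_at (-0.47) were members, and Ta.8942.1.S1_at and Ta.6146.1.S1_at (both -0.51) were not. For the gain, Ta.30738.1.S1_x_at (2.01) and Ta.22817.2.S1_s_at (2.02) were the closest inside, and Ta.10364.1.S1_at and Ta.14588.2.S1_s_at (both 1.99) the closest outside. For the level, the closest were Ta.2971.1.S1_at and Ta.13581.1.S1_at with P2 means of 500.1 and 529, against TaAffx.5112.1.S1_at and Ta.5904.2.S1_at at 481 and 476.

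The median gain of the members was 2.89 on the log2 scale, or 7.39-fold, with quartiles of 2.35 and 3.76, and 53 members gained 3 or more, 21 gained 4 or more and 8 gained 5 or more. Their median change from P2 to P3 was 0.07, with quartiles of -0.16 and 0.31. It lay above 0 in 69 members and below 0 in 46, and it was under 0.25 either way in 65 and under 0.1 in 24. From P1 to P3 the members differed by 3.21-fold to 124-fold, with a median of 7.70-fold. The rule largely fixed that difference, since it set both the gain and the plateau. The largest of these folds rests on P1 signals below background and is no measured size.

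**Figure D2:**
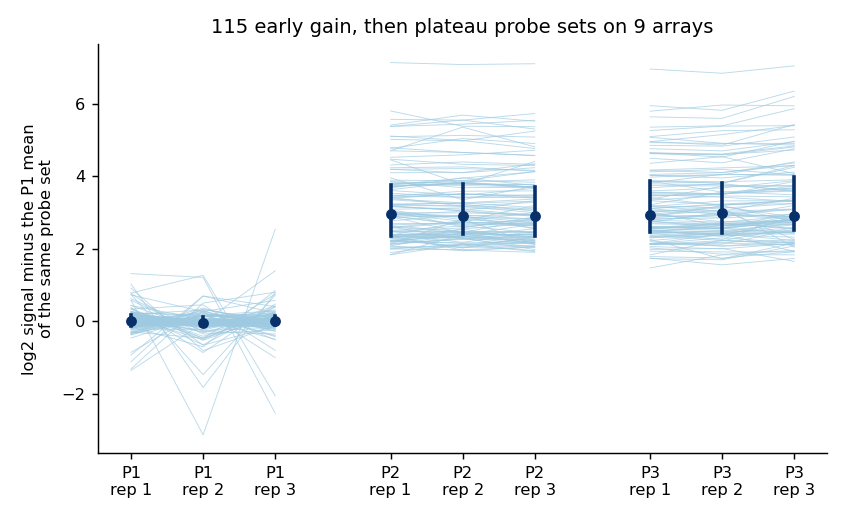
Log2 signal of each of the 115 members on the 9 arrays, as the difference from its own mean over the 3 P1 arrays; thin lines join the arrays of a phase, points are medians and thick bars run from the lower to the upper quartile. Medians sit near 3 on all 6 arrays of P2 and P3, and the widest scatter of single lines is at P1.

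A change of less than 0.5 does not show that a level stayed the same. The standard error of a member's change from P2 to P3, from a limma fit over the whole table, had a median of 0.12 and ranged from 0.06 to 0.99. In 56 members the approximate 95% interval lay wholly within 0.5 either way. The fit pools the spread over all phases, so this error equals that of the gain and takes in the scatter of the P1 arrays. The same holds for every SE of a later change given below. The P2 and P3 arrays overlapped in 54 members. In 38 members all P3 arrays lay above all P2 arrays, and in 23 all lay below, against 22.0% and 22.9% of the 9414 probe sets of that level that met the plateau criterion. The standard deviation of log2 signals over the 3 arrays had a median over members of 0.18 at P1, 0.10 at P2 and 0.10 at P3, and of 0.09, 0.11 and 0.11 over the other 12846 probe sets of that level, so the members scattered more at P1, where their signals were low.

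Background on each array, taken as the 95th percentile of 64 reporter probe sets for sequences foreign to wheat, averaged 94.1 ± 8.09 on P1 arrays (SD, n = 3), 135 ± 27.2 on P2 arrays and 109 ± 8.35 on P3 arrays. All 3 P1 arrays were above it in 89 members, and all 3 were below it in 8, while no P2 or P3 signal of any member was below it. For those 8 the gain is only a bound, between at least 5.83-fold and at least 22.3-fold, in which each P1 array counts at its background, or at its own signal if that was greater. With every dim signal raised to background, all 115 still met the rule, their median gain was 2.81 and the largest gain was 5.62.

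Spiked-in controls move with P2 and bear on every value given here. The poly-A controls, transcripts added to the RNA before labelling, stood on the log2 scale at -0.25 ± 0.05 in P1 (SD, n = 3), at 0.63 ± 0.02 in P2 and at -0.38 ± 0.02 in P3, with their average over the 9 arrays set to 0. Scaling each array to them lowers P2 by 0.87 against P1 and raises P3 by 1.01 against P2. Under that scaling 17 probe sets met the rule, 0 of them among the 115, and the members' median gain was 2.01 and their median later change 1.08. For the members these values follow from the shift itself. No member's later change was below -0.48, so adding 1.01 took every member past 0.5. The wheat 3-prime to 5-prime log2 ratio, a rough measure of RNA integrity, was 3.32 ± 0.24, 2.11 ± 0.09 and 2.53 ± 0.07. With it as a covariate, 125 probe sets met the rule, 77 of them among the 115. The ratio ran from 3.16 to 3.59 on P1 arrays, 2.02 to 2.21 on P2 and 2.49 to 2.61 on P3. It did not overlap between phases, so the covariate cannot separate integrity from phase. Quantile normalization kept 108 of the 115 and scaling to the hybridization controls, spiked in later, kept 103. These settings do not separate RNA input or integrity from phase, and their part in the plateau was not tested.

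The same measure can be read on arrays that did not choose. When members were chosen on replicates 2 and 3 of each phase, 112 probe sets qualified, and on the replicate 1 arrays their median gain was 2.99, and at least 2 in 102 of them. Chosen without replicate 2, 123 qualified with a median gain of 2.75 on the arrays left out, and chosen without replicate 3, 128 qualified with 2.77. The later change was within 0.5 on the arrays left out in 88.4%, 81.3% and 68.0% of the chosen probe sets, against 68.7%, 68.5% and 68.8% of all probe sets of that level. The gain was 1 or more on the left-out arrays in 111 of 112, 120 of 123 and 128 of 128. For these gains no share over all probe sets was worked out. The left-out arrays come from the same 3 phases, so the counts are descriptions and no independent support. The plateau was met at the lowest share on the replicate 3 arrays, where the median later change was 0.17 against -0.02 and 0.03 on those of replicates 1 and 2.

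The platform annotation names 5 of the 115 members (4.3%), all by bare locus names for 4 genes. Among all 12961 probe sets with a mean P2 signal of 500 or more it names 5.4%. Of the early gainers that were higher or lower by 0.5 or more at P3 it names 11.0% and 11.6%. Neither the annotation nor the RefSeq gene table gives those 4 genes a descriptive symbol or synonym. The other 110 members are unnamed here, not without a gene. LOC606352 is the one gene with a pair of member probe sets. On Ta.3729.1.A1_at its signals were 78.4, 65.2 and 77.2 at P1, all below background, then 1613, 1011 and 1563 at P2 and 1509, 1715 and 1239 at P3, at least 14.5-fold higher at P2 than at P1. On Ta.3749.1.S1_s_at they were 1483, 1648 and 1552, then 6878, 11030 and 6801, and then 6183, 6285 and 4921, so that P2 replicate 2 stood above the other arrays. Its log2 gain was 2.36 (SE 0.16) and its later change -0.48 (SE 0.16), and all 3 P3 arrays lay below all 3 of P2.

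One more probe set of LOC606352 fell further after P2 than either member. Ta.3749.1.S1_at, which differs from the member Ta.3749.1.S1_s_at by its suffix only, was at 1331, 1339 and 1516 at P1, at 6397, 5730 and 6811 at P2 and at 2484, 2877 and 3091 at P3. It rose 4.52-fold and then fell by 1.17 on the log2 scale (SE 0.10, adjusted p = 3.27e-06 by limma with Benjamini-Hochberg adjustment). The suffix s marks probes shared by several transcripts, and the plain suffix marks probes designed for a single one. By the rule, the signals of this gene therefore gave a plateau on 2 probe sets and a fall on 1. Of these 2, however, Ta.3749.1.S1_s_at was itself lower at P3, with a change of -0.48 that only just met the limit of 0.5.

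The other annotated genes had 1 probe set each. LOC543220 was at 245, 309 and 270 at P1, at 1376, 1396 and 1401 at P2 and at 1286, 1430 and 1371 at P3 on Ta.5685.1.S1_at, with a gain of 2.35 (SE 0.10) and a later change of -0.03 (SE 0.10). LOC543359 was at 1528, 1614 and 1652, then at 7032, 7835 and 7923, and then at 6523, 5772 and 6213 on Ta.5046.1.S1_at. Its later change was -0.30 (SE 0.07), with every P3 array below every P2 array. LOC543396 was at 138, 94.1 and 275, at 2123, 2056 and 1992, and at 1725, 1643 and 1518 on Ta.23659.1.S1_at, a gain of 3.75 (SE 0.28) from uneven P1 arrays and a later change of -0.34 (SE 0.28). Of the annotated members only Ta.3729.1.A1_at was higher at P3 than at P2 on average.

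**Figure D3:**
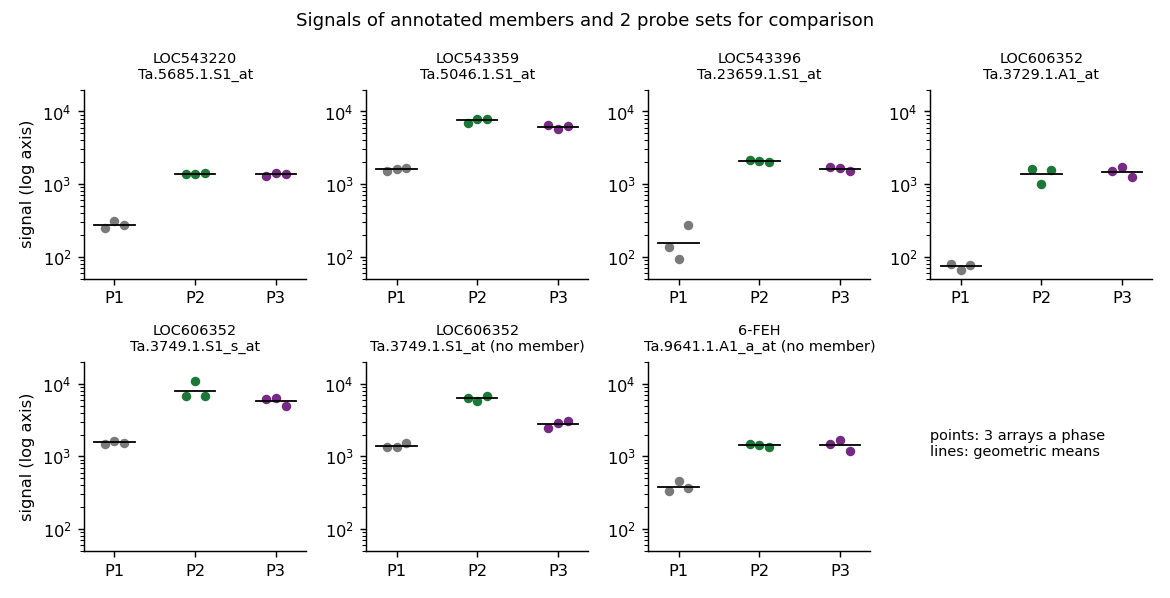
Signals (log axis) on the 3 arrays of each phase for the 5 annotated members and, for comparison, the non-member probe set of LOC606352 and the 6-FEH probe set nearest to the rule; points are arrays and lines geometric means. The P2 and P3 points overlap or lie close in the members, while LOC606352 on Ta.3749.1.S1_at goes from a mean of 6313 at P2 to 2817 at P3.

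Named genes of grain maturation mostly took another course. Among 9 probe sets of the late embryogenesis and desiccation genes EM, EMH2, Rab15 and LEA1, which protect cells as the seed dries, 8 met the gain and level criteria and all 8 were higher by 0.5 or more again at P3, while LEA1 missed the gain criterion. Rab15 (LOC543293), a dehydrin-type gene, had mean signals of 5756 at P2 and 14381 at P3 on Ta.2704.1.S1_at. WGA2 (LOC543494), wheat germ agglutinin, went from 6280 to 17421, and hsp16.9A (LOC543277), a small heat shock protein gene, from 8565 to 4616. PEAMT1 and PIMT, left out by name, had the course of the members. Their gains were 2.86 (SE 0.17) and 2.18 (SE 0.18), and their later changes -0.22 and -0.23. Of the other genes compared, 6-FEH (LOC780575), a fructan exohydrolase, narrowly missed the gain threshold at 1.90 (SE 0.14) on Ta.9641.1.A1_a_at. Its later change there was 0.00 (SE 0.14). Its other probe sets differed: Ta.30950.1.A1_x_at had a gain of 1.73 (SE 0.16) and a later change of -0.84 (SE 0.16), and TaAffx.93410.1.S1_at was below background on all 3 P1 arrays, with signals of 70.0, 59.7 and 146 at P2. These genes were picked with earlier results of these data known. The 5 probe sets of the serpin and xylanase inhibitor genes did not meet the gain criterion, with a median gain of 1.34.

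The 8 largest gains held probe sets of quite different precision. Ta.21115.3.A1_s_at had the largest, 7.11 on the log2 scale, but from P1 signals of 15.4, 2.13 and 13.1, so that only a difference of at least 11.1-fold is measured, to 1067, 1028 and 1044 at P2 and 943, 870 and 1002 at P3. Ta.3605.1.S1_x_at, below background at P1 as well (79.8, 17.2 and 78.5), was at 1981, 2069 and 2229 at P2 and at 2652, 2985 and 2940 at P3, at least 22.3-fold above P1 by P2. Ta.14247.2.S1_x_at was below background on 2 of 3 P1 arrays (25.1, 1.91 and 97.2), and its gain of 5.52 had the widest standard error of the members, 0.99. With signals raised to background their gains were 3.48, 4.48 and 2.99.

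The other 5 of these were measured on at least 2 P1 arrays. Ta.5839.1.S1_x_at was at 812, 846 and 914 at P1, at 40859, 40220 and 45683 at P2 and at 53089, 48531 and 70136 at P3, a gain of 49.3-fold (log2 5.62, SE 0.12). Ta.5839.1.S1_at, of the same cluster, gained 46.7-fold (SE of the log2 value 0.13), and Ta.2709.1.S1_s_at gained 42.7-fold, from 1168, 1354 and 1293 to 52845, 59774 and 50264, with 52149, 53497 and 74312 at P3. In each of these 3, P3 replicate 3 was the highest of the 9 arrays. Ta.28555.1.S1_at and Ta.28555.2.S1_at gained 34.4-fold and 34.0-fold (SE 0.19 and 0.09 on the log2 scale), the former with 1 of 3 P1 arrays below background.

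The 8 members with the highest signals at P3 were Ta.9389.1.S1_at, Ta.2709.1.S1_s_at, both probe sets of Ta.5839, all 3 members of Ta.20518 and Ta.5895.1.S1_at, with P3 means from 47596 to 69509. A signal also depends on the probes, so it does not rank transcripts by abundance. Ta.9389.1.S1_at was at 4502, 4075 and 4374 at P1, at 56977, 61524 and 55345 at P2 and at 62711, 60889 and 84927 at P3, with a gain of 13.4-fold and a later change of 0.25 (SE 0.11). Ta.5895.1.S1_at gained 15.7-fold, from 2620 ± 171 (SD, n = 3) to 41160 ± 4148, and was at 47596 ± 5845 at P3. On both, P3 replicate 3 stood apart from the other P3 arrays.

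That array was the highest of P3 in all 18 members with a P2 mean of 20000 or more. Its median deviation from the P3 mean was 0.26 on the log2 scale there, against -0.13 and -0.14 for replicates 1 and 2. It was also the highest in 439 of 475 other probe sets of that level (92.4%, median deviation 0.18), and in 51.5% of the 97 members under 20000 (median deviation 0.05). The later change of the 18 was above 0 in 15, with a median of 0.24, and without P3 replicate 3 it was above 0 in 11 with a median of 0.10. In the 97 others the median was 0.05 with that array and 0.06 without it. Without it 121 probe sets met the rule, 113 of them among the 115.

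**Figure D4:**
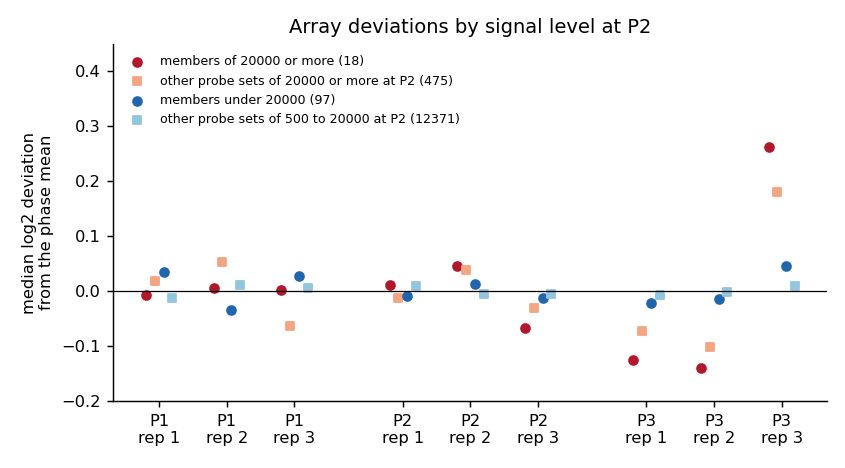
Median log2 deviation of each array from the mean of its phase, for members and for other probe sets at 2 levels of P2 signal, with the number of probe sets in brackets. On P3 replicate 3 the 18 members of 20000 or more sit at 0.26 and the 475 others of that level at 0.18, while probe sets under 20000 stay within 0.05 of the mean on every array.

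The level at P2 did not order the gains. In the 24 members between 500 and 1000 the median gain was 2.77, in the 43 between 1000 and 5000 it was 3.06, in the 30 between 5000 and 20000 it was 2.72 and in the 18 above it was 3.28. The later change had medians of 0.04, 0.11, -0.13 and 0.24 in the same order, and was above 0 in 15 of 24, 26 of 43, 13 of 30 and 15 of 18. The flattest members came from several of these levels. Ta.25161.1.S1_x_at and Ta.14034.1.A1_at had later changes of 0.00 (SE 0.25 and 0.10), and Ta.4207.2.S1_at and TaAffx.123425.1.S1_at of 0.01 (SE 0.09 and 0.13). Ta.4207.2.S1_at was at 504, 483 and 508 at P1, at 2424, 2045 and 2106 at P2 and at 2297, 2107 and 2183 at P3, while Ta.14034.1.A1_at was at 31041 and 30836 on 2 of the P3 arrays and at 41261 on replicate 3.

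The ID of a probe set carries the number of the transcript cluster it was designed on, and the members fell into 93 such clusters. Of these, 77 held 1 member and 16 held 2 to 4, 38 members in all. Within the 16 the gains of the members differed by 0.41 on the log2 scale in the median (range 0.00 to 1.84), and in 11 the later changes of the members shared a sign. Probe sets of a cluster can share probes or read copies of a gene, so they are not separate observations. By class of ID and suffix the members were close to the 12961 probe sets of that level. The suffix x, for probes that may cross-hybridize, was on 20.9% against 20.7%, and the class TaAffx made up 11.3% against 14.9%, although it made up 30.4% of the early gainers that were lower by 0.5 or more at P3.

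Among the clusters with 3 or more members, every probe set on the array was a member in 3. The 4 of Ta.28555 gained between 3.84 and 5.11 and were all slightly lower at P3 than at P2 (-0.18 to -0.40), with no overlap of the P2 and P3 arrays in any of them. Ta.28555.2.S1_at was at 249, 218 and 208 at P1, at 7284, 7082 and 8541 at P2 and at 6844, 6752 and 6552 at P3, and Ta.28555.3.S1_at at 727, 764 and 800, then 14421, 14657 and 13491, then 12487, 11866 and 13283. The 3 of Ta.10 went the other way, with gains of 2.25 to 2.48 and later changes of 0.28 to 0.34. On Ta.10.2.S1_x_at the signals were 2341, 2428 and 2410, then 12062, 11735 and 12021, then 14741, 14228 and 15917. Of the 3 of Ta.14247, the one with all P1 arrays above background, Ta.14247.1.S1_at, was at 126, 98.6 and 101, at 2963, 3574 and 3248, and at 3663, 3260 and 3258, a gain of 30.1-fold.

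In 29 clusters other probe sets stood beside the members, 71 in all, of which 57 passed the filter on low signal. They are readouts that the rule did not take, though each had failed at least 1 of its criteria. By limma, 35 of the 57 rose from P1 to P2 (adjusted p under 0.05 and at least 2-fold) and 0 fell. Among the 36669 probe sets fitted, 6.89% were called higher and 5.79% lower. An unadjusted limma p under 0.05, whatever the direction, was found for 51 of the 57 and for 15581 of the 36669. The median log2 change of the 57 was 1.44, against 0.01 for the 36669. Of the 35, 3 rose again from P2 to P3 and 1 fell, against 4.46% and 2.77% of all probe sets tested. Among the 49 designed on another sequence than any member of their cluster 27 rose (median 1.19), and all 8 designed on a member's sequence did. Scaled to the poly-A controls, 16 of the 57 rose.

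Some clusters held one course and others held several. In Ta.20582, 3 probe sets were members, with gains of 2.31 to 2.53 and later changes of 0.09 to 0.15, while Ta.20582.3.S1_a_at was lower at P2 by a log2 change of -0.53 (SE 0.07, adjusted p = 8.11e-05 by limma, under 2-fold and so not called). In Ta.20518, 3 members gained 2.95 to 3.49, Ta.20518.3.S1_a_at rose by 3.06 and missed the plateau at 0.55, and Ta.20518.1.S1_at had a gain of 0.79. Ta.23807 held 13 tested probe sets, with gains of 2.82 and 2.96 in 2 members and of -0.98 to 1.64 in the other 11, of which 1 was called. By fitted gain, the non-member farthest from a member was Ta.21115.2.S1_x_at, at 325 ± 46.5 (SD, n = 3), 338 ± 38.7 and 342 ± 27.6, in the cluster with the largest fitted gain of all members. That gain rests on P1 signals below background and was 3.48 with them raised to it, so the size of the gap is not measured. The other 2 tested probe sets of the cluster, also below background at P1, were called higher at P2, with gains of 3.19 and 4.31.

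**Figure D5:**
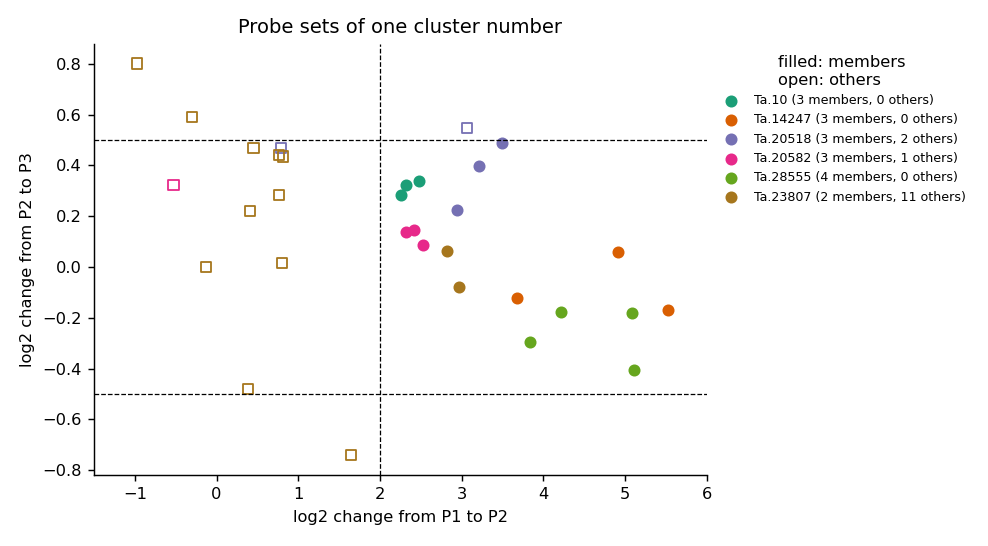
Log2 change from P1 to P2 (horizontal axis) and from P2 to P3 (vertical axis) for the 5 clusters with 3 or more members and for Ta.23807; filled circles are members, open squares other tested probe sets of the same cluster, and dashed lines the thresholds. Member gains span 0.22 in Ta.10 and 1.84 in Ta.14247, and of the 14 open squares 12 lie left of a gain of 1.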

How the data were processed

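The deposited values are linear intensity signals for 61290 probe sets on 9 arrays, made by the authors with MAS5 per the submitters' processing notes, its version not given in the sources used here. Their mean, with 2% trimmed at each end, was 500.1 on every array, and no further normalization was applied. The 175 control probe sets were left out. Of the rest, 1273 carry 1 gene symbol in the platform annotation and 59842 none. Members were found on log2 signals with a pseudocount of 0. All probe sets but the lowest 40% by mean log2 signal, 36669 in all, were fitted with limma 3.58.1 in R 4.3.3, with phase as the factor, all 9 arrays and an intensity trend. Benjamini-Hochberg adjustment ran over all of these. Calls needed an adjusted p under 0.05 and a 2-fold change. The fit and the rule were tested on simulated data.

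The members, lists and comparison genes were chosen with earlier results of these data known. Probe sets were named if annotated, among the 8 largest gains, the 8 highest P3 signals or the 4 flattest, in clusters with 3 or more members, in the 3 clusters whose other probe sets differed most, or nearest a threshold. Precision is limited by 3 arrays a phase. Per the labels the replicates were separate field plots of one season, so p-values measure the spread between plots. No genome or sequence table was used, so no sequences or coordinates are given. Deviations of same-numbered arrays correlated at -0.05 to 0.03 over 9 pairs, and those of other-numbered arrays at -0.04 to 0.06 over 18. No shared offset was visible, which cannot show whether equal numbers had a common source.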

Additional observations from a re-analysis of the deposited data

How the results depend on the processing

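The number of members depended most on the scaling and on the thresholds. It was 115, and 107 to 114 under quantile normalization, median scaling and scaling to the hybridization controls, but 17 under scaling to the poly-A controls, where the members' median gain was 2.01 and their median later change 1.08. It was 191 with a least gain of 1.5, 76 with 2.5, 72 with a widest later change of 0.3 and 191 with 1. Leaving out arrays gave 112 to 128. With poly-A scaling 760 in place of 2528 probe sets were called higher at P2 than P1, 18938 in place of 2650 were called changed between P2 and P3, and 16 in place of 35 other probe sets of the members' clusters were called higher at P2. The poly-A scaling itself shifts P2 against both other phases on all probe sets, so the members' medians under it follow from that shift. Called higher at P3 than P1 were 3067, and 2282 to 3923 under the alternatives other than left-out arrays. With the replicate number as a replicate block the counts were 2486, 2597, 3044 and 35, so pairing changed no count by over 1.5 times. Counting only probe sets designed on another sequence, an alternative chosen after seeing the data, gave 27 of 49. No called change of the 80 tested probe sets considered by name was reversed by another scaling, by dim signals at background or by leaving out an array. Their values were less steady than that. Scaled to the poly-A controls, the gain changed sign in 10 of the 80 and the later change in 25. Scaled to the hybridization controls, it was 1 and 10.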
